A study of Mus musculus with 8 samples.

Results

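The interleukin 6 (IL6) family comprises cytokines that share the receptor chain gp130, encoded by Il6st. Each ligand brings gp130 together with a further receptor chain, which activates JAK kinases and the transcription factor STAT3. IL-6 uses Il6ra, IL-11 uses Il11ra1, LIF uses Lifr, oncostatin M uses Osmr or Lifr, and cardiotrophin-like cytokine factor 1 uses the ciliary neurotrophic factor receptor with Lifr. In skin, these cytokines are known for the acute phase of wound repair, for keratinocyte migration and for inflammation. 10 genes of the family, 5 ligands (Il6, Il11, Lif, Osm and Clcf1) and 5 receptor chains (Il6ra, Il11ra1, Lifr, Osmr and Il6st), were found by gene symbol among the 18540 genes of the count table. All 10 passed the filter on low counts, which kept 15147 genes, and 9 of them, all except Clcf1, carry the JAK-STAT pathway in the KEGG annotation of the table.

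RNA was sequenced from mouse wound skin of a control group given PBS (4 samples) and of a group given Z1C2Z for 15 days (4 samples). Z1C2Z is a composite of ZnO2 and CeO2 nanoparticles in a zeolitic imidazolate framework (ZnO2/CeO2@ZIF-8), here the version made with more CeO2 per ZnO2. In the wound experiments of the study, 100 μg/kg was injected around the wound every 7 days. The sample titles read con and shiyan with a number, which are written here as control (numbers 1, 2, 3 and 5) and Z1C2Z (numbers 1, 2, 4 and 5). The titles do not name the composite, and the methods on sequencing say only ZCZ, a name that covers versions with less and more CeO2. The name Z1C2Z was taken from the sample names in the study's heat map, which carry the same numbers. The study describes wounds on C57BL mice aged 6 weeks and on db/db mice aged 10 weeks, which lack a working leptin receptor and are diabetic. The sources used here do not state which of these mice were sequenced, nor whether samples came from separate mice, although each mouse carried 2 wounds of 10 mm. P-values therefore set the difference between the groups against the spread between these samples, which may be partly technical. If 2 wounds of 1 mouse were sequenced as separate samples, they would not be independent, and p-values could be too small. The tissue is whole wound skin, so the cell types that produced each transcript are not resolved.

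The libraries held 28856790 to 38974888 reads assigned to genes. Levels are given as CPM, a gene's reads per 1000000 reads of a library whose size was scaled with edgeR's TMM factor, and as mean ± SD with n = 4 per group. Skin markers were present in all samples: the summed level of 6 keratinocyte genes (Krt5, Krt14, Krt1, Krt10, Trp63 and Col17a1) was between 11830 and 17988 CPM, and none of them was at 0. The first principal component held 62.2% of the variance of all genes, and Z1C2Z-5 lay between the other Z1C2Z samples and the controls on it.

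Il6, Il11 and the oncostatin M receptor gene Osmr were lower in Z1C2Z than in control wounds, with mean levels 45.5-fold, 14.5-fold and 2.61-fold lower. The fold of the means depended on single controls for the ligands, and it was 29.3 for Il6 without control-1 and 5.01 for Il11 without control-5, whereas for Osmr it was between 2.35 and 2.85 without any one control. Leaving out 1 control understates this for Il6, because control-1 (174 CPM) and control-5 (150.1 CPM) were both high. Control-2 (5.19 CPM) and control-3 (7.49 CPM) were far nearer to the Z1C2Z mean of 1.85 CPM. For Il11 they were at 4.36 and 2.67 CPM, against a Z1C2Z mean of 1.45 CPM. A gene was called at an adjusted p under 0.05 (edgeR's quasi-likelihood test, Benjamini-Hochberg over all genes tested) and a fold change over 2. By this rule 3 of 10 members were called lower, against 1.25% of all genes tested, and 0 of 10 were called higher, against 2.15%. With the adjusted p alone the count was also 3 of 10, against 8.13% of all genes. No member was higher at an unadjusted p under 0.05 (12.8% of all genes were) or with DESeq2, and 7 of 10 were lower at that unadjusted p, against 15.2% of all genes. The fold change was below 0 on the log2 scale for 9 of 10 members and 48.9% of all genes, and the median log2 fold change was -1.25 for the members and 0.0086 for all genes tested. In bulk tissue, fewer cells of a type and less RNA per cell cannot be told apart.

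**Figure D1:**
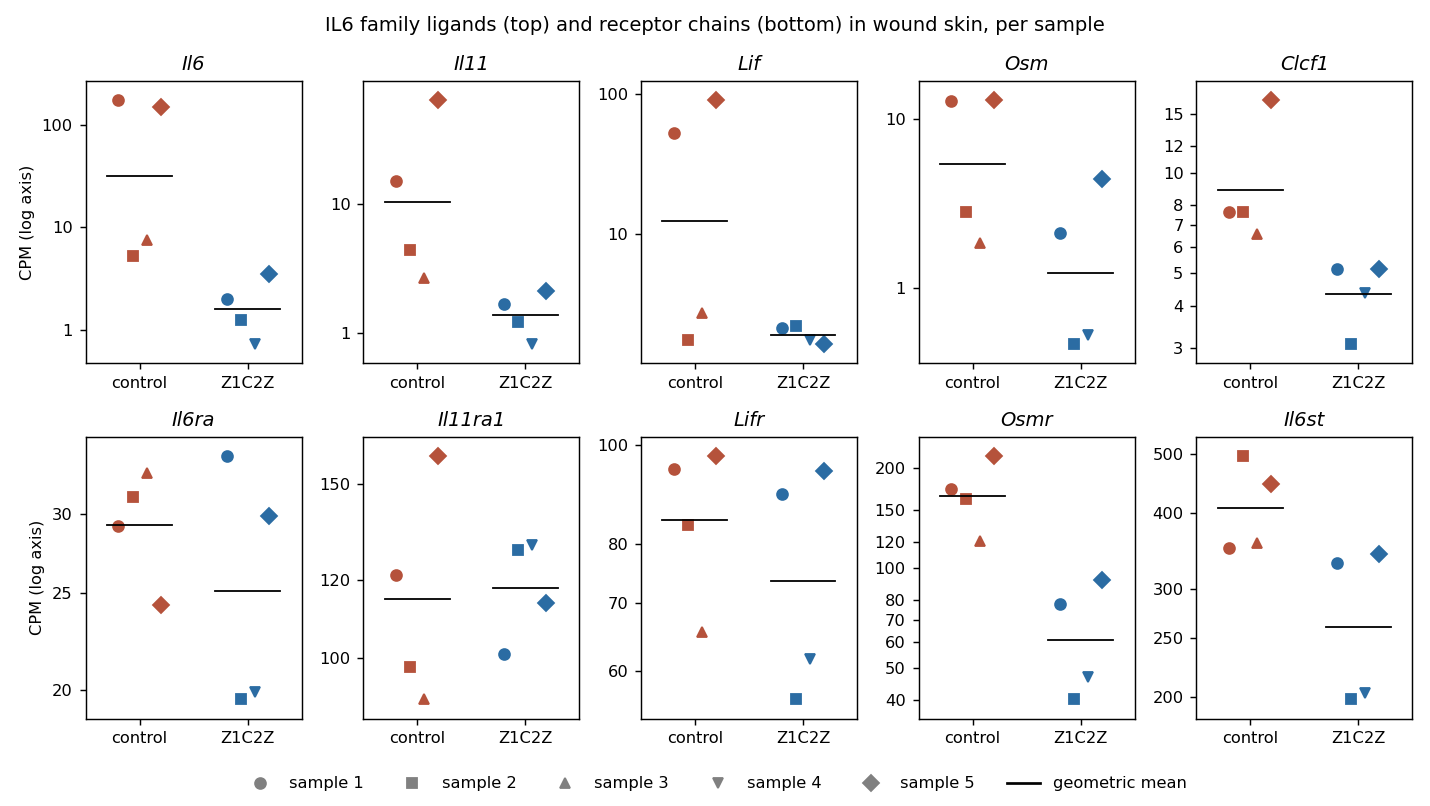
CPM (log axis) of each member in the 4 control (red) and 4 Z1C2Z (blue) samples, with ligands in the top row and receptor chains in the bottom row; symbols mark the sample number and lines the geometric mean. For Il6, Il11, Clcf1, Osmr and Il6st every Z1C2Z sample lies below every control sample, and control-1 and control-5 stand above the other controls for Il6, Il11, Lif and Osm.

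The promoters of the 3 called genes and of Lif, the ligand with the second lowest log2 fold change, are shown because they share a motif. The windows come from RefSeq on GRCm38.p6 and run from 250 bases before to 50 bases after a transcript start, on the strand of the gene. The table held windows for 8 of the 10 members and none for Osm and Clcf1. Capitals mark AP-1 motifs (TGANTCA) and, in Il6, also an NF-κB motif. The windows are Il6 at chr5:30012864-30013163 (+), Il11 at chr7:4778092-4778391 (−), Lif at chr11:4257318-4257617 (+) and Osmr at chr15:6874264-6874563 (−).
Il6: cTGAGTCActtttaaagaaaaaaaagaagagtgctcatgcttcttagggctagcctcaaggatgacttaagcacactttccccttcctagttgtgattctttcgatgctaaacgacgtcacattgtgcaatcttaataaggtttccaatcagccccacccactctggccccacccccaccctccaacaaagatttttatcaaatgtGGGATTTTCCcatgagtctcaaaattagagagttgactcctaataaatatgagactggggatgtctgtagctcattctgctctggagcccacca
Il11: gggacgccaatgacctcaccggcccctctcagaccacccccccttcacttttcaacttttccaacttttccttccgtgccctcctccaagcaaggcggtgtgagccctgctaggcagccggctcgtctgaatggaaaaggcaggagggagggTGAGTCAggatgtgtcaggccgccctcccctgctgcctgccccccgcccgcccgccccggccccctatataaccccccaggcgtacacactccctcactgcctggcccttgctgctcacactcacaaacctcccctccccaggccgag
Lif: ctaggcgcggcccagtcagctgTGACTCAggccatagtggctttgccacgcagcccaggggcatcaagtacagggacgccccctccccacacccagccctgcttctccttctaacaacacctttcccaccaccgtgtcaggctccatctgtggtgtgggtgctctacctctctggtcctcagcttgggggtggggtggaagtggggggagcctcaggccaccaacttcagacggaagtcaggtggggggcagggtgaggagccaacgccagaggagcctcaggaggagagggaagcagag
Osmr: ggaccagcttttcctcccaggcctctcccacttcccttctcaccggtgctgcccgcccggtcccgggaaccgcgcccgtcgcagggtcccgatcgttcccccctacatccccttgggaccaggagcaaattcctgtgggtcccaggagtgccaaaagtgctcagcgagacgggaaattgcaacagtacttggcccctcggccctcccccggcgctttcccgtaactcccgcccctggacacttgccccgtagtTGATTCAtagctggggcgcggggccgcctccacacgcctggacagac

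The motif of AP-1, the dimer of FOS and JUN proteins, was TGAGTCA in Il6 (beginning 249 bases before the start) and in Il11 (98 bases before). In Lif it was TGACTCA (228 bases before), and in Osmr it was TGATTCA (3 bases after the start). The NF-κB match of Il6, GGGATTTTCC, began 44 bases before the start. An AP-1 motif was present on either strand in 7.81% of the 32851 windows of the table, and an NF-κB consensus in 4.51%. The windows of Il6ra, Il11ra1, Lifr and Il6st and the other window of Il11 held neither. The STAT motif TTCNNNGAA (8.30% of all windows) and TATAAA (13.6%) were not found in any of the 11 windows of the members. A match of these letters is a description of the sequence and does not show binding.

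Il6 (Entrez gene 16193) encodes the founding ligand of the family, a cytokine of the acute phase response. Its level was 174 CPM in control-1, 5.19 in control-2, 7.49 in control-3 and 150.1 in control-5. In the treated wounds it was 1.97 CPM in Z1C2Z-1, 1.24 in Z1C2Z-2, 0.728 in Z1C2Z-4 and 3.47 in Z1C2Z-5. All Z1C2Z samples were below all controls, and the controls themselves fell into a high pair, control-1 and control-5, and a low pair, control-2 and control-3. The mean was 84.3 ± 90.5 CPM in control and 1.85 ± 1.19 CPM in Z1C2Z, with a log2 fold change of -5.51 (SE 1.23, adjusted p = 0.0356). The treated samples held between 29 and 125 reads of Il6, against 187 to 5330 in the controls. The call was lost without Z1C2Z-4 (log2 fold change -5.24, adjusted p = 0.108), Z1C2Z-2 (-5.35, 0.111), Z1C2Z-1 (-5.54, 0.0794) or control-5 (-5.05, 0.0906).

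Il11 (Entrez gene 16156) encodes interleukin 11, a cytokine known for stromal and fibroblast responses. It was measured at 14.8 CPM in control-1, 4.36 in control-2, 2.67 in control-3 and 62.5 in control-5. In the Z1C2Z samples, the values were 1.66 CPM in Z1C2Z-1, 1.22 in Z1C2Z-2, 0.8286 in Z1C2Z-4 and 2.11 in Z1C2Z-5. The groups did not overlap, control-5 was above all other samples, and the lowest control, control-3, was close to the highest treated sample, Z1C2Z-5. The mean level was 21.1 ± 28.1 CPM in control and 1.45 ± 0.553 CPM in Z1C2Z (log2 fold change -3.86, SE 0.97, adjusted p = 0.0449). This call held in 1 of the 8 fits that left out a sample, the fit without control-3 (-4.23, adjusted p = 0.0325). Without control-5 the log2 fold change was -2.31 (adjusted p = 0.0919), and in the other 6 fits it was between -4.20 and -3.67, with adjusted p between 0.0507 and 0.131.

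Lif (Entrez gene 16878) encodes leukaemia inhibitory factor. It was at 52.7 CPM in control-1, 1.75 in control-2, 2.73 in control-3 and 89.7 in control-5. The treated samples were at 2.12 CPM in Z1C2Z-1, 2.18 in Z1C2Z-2, 1.73 in Z1C2Z-4 and 1.64 in Z1C2Z-5. Control-2 lay within the range of the Z1C2Z samples and control-3 just above it, so the groups overlapped, whereas control-1 and control-5 were far higher. The log2 fold change was -4.26 (SE 1.15), more negative than that of Il11, and it did not pass the test (adjusted p = 0.0539). It passed without control-3 (-4.65, adjusted p = 0.0347) and with DESeq2 (-4.27, adjusted p = 0.00227). Without control-5 it was -3.29 (adjusted p = 0.137), and over all alternatives the adjusted p was between 0.00227 and 0.178.

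Osm (Entrez gene 18413) encodes oncostatin M, a product of neutrophils and macrophages among other cells. Its control values were 12.9 CPM in control-1, 2.80 in control-2, 1.85 in control-3 and 12.96 in control-5. With Z1C2Z they were 2.12 CPM in Z1C2Z-1, 0.466 in Z1C2Z-2, 0.527 in Z1C2Z-4 and 4.44 in Z1C2Z-5. Z1C2Z-1 and Z1C2Z-5 lay within or above the range of the low controls, and Z1C2Z-2 and Z1C2Z-4 were below every control. The log2 fold change of -2.02 (SE 0.85) did not pass the test (adjusted p = 0.160).

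Clcf1 (Entrez gene 56708) encodes cardiotrophin-like cytokine factor 1. It was at 7.64 CPM in control-1, 7.66 in control-2, 6.56 in control-3 and 16.5 in control-5, and at 5.16 CPM in Z1C2Z-1, 3.08 in Z1C2Z-2, 4.37 in Z1C2Z-4 and 5.16 in Z1C2Z-5. The groups did not overlap, and control-5 stood apart from the other 3 controls, which lay close together. The log2 fold change was -1.11 (SE 0.31, adjusted p = 0.0597), which missed the threshold with edgeR and passed it with DESeq2 (-1.12, adjusted p = 0.00555). Without control-5 it was -0.71 (adjusted p = 0.115).

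Osmr (Entrez gene 18414) encodes the signalling chain that pairs with gp130 for oncostatin M and is known to be expressed by keratinocytes and fibroblasts. Its level was 173 CPM in control-1, 161 in control-2, 121 in control-3 and 217 in control-5. In the treated wounds it was 78.1 CPM in Z1C2Z-1, 40.3 in Z1C2Z-2, 47.2 in Z1C2Z-4 and 92.1 in Z1C2Z-5. Every treated sample was below every control, and the highest control was 1.80 times the lowest, a smaller factor than for any of the 5 ligands. The mean was 168 ± 39.8 CPM in control and 64.4 ± 24.7 CPM in Z1C2Z (log2 fold change -1.38, SE 0.28, adjusted p = 0.0306), from 1557 or more reads in every sample. The direction held in all 13 alternative fits, and the call was lost without Z1C2Z-4 (-1.26, adjusted p = 0.0932), Z1C2Z-2 (-1.21, 0.0906), Z1C2Z-1 (-1.48, 0.0667), control-5 (-1.23, 0.0858) or control-2 (-1.40, 0.0610).

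Il6st (Entrez gene 16195) encodes gp130 itself. It was at 350.4 CPM in control-1, 495 in control-2, 358 in control-3 and 446 in control-5, and at 332 CPM in Z1C2Z-1, 199 in Z1C2Z-2, 204 in Z1C2Z-4 and 343 in Z1C2Z-5. The groups did not overlap, but the highest treated sample, Z1C2Z-5, was close to the lowest control, control-1. The mean was 412 ± 70.3 CPM in control and 269 ± 78.8 CPM in Z1C2Z (log2 fold change -0.62, SE 0.21, adjusted p = 0.0989), short of the threshold with edgeR, while DESeq2 gave -0.62 with an adjusted p of 0.0296.

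The ligand-binding chains Il6ra (Entrez gene 16194), Il11ra1 (16157) and Lifr (16880) overlapped between the groups. Il6ra was at 29.4 ± 3.73 CPM in control and 25.9 ± 7.36 CPM in Z1C2Z (log2 fold change -0.18, SE 0.20, adjusted p = 0.570). Lifr was at 85.3 ± 14.5 and 75.4 ± 19.2 CPM (-0.18, SE 0.19, adjusted p = 0.582). Il11ra1 was at 118 ± 31.2 and 118 ± 13.8 CPM (0.01, SE 0.18, adjusted p = 0.973), and its sign turned in 5 of 13 alternative fits. Il11ra1 and Il11ra2 are near-identical copies, and how the counting divided reads between them is not given in the sources used here, so the Il11ra1 level is uncertain. Il11ra2 itself was at 0.354 ± 0.523 CPM in control and 0.475 ± 0.294 CPM in Z1C2Z. Within the Z1C2Z group, Il6ra and Lifr were lower in Z1C2Z-2 and Z1C2Z-4 than in Z1C2Z-1 and Z1C2Z-5, and for Il11ra1 the order was the opposite.

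**Figure D2:**
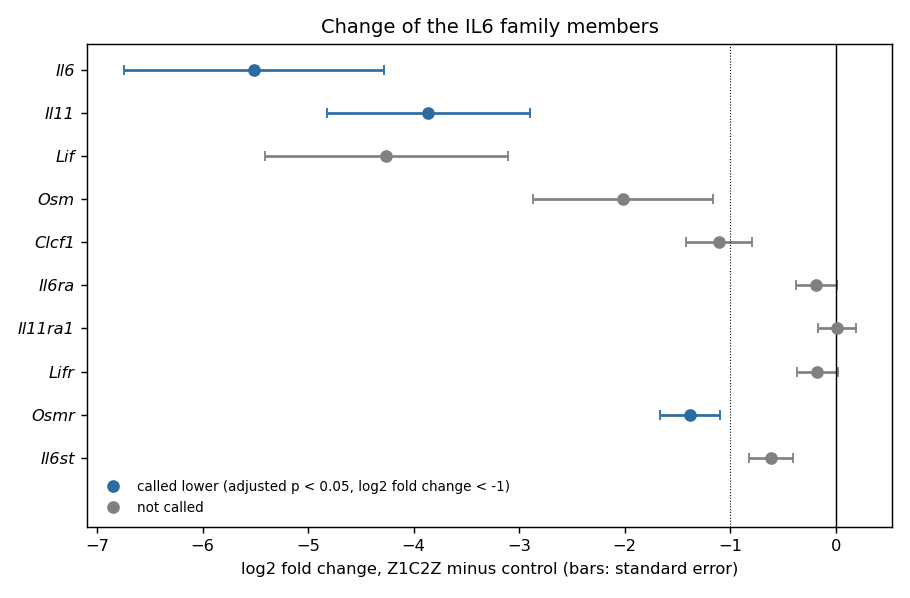
Log2 fold change (Z1C2Z minus control) of the 10 members from edgeR, with bars for the standard error and a dotted line at -1. Il6, Il11 and Osmr (blue) were called lower, and the wide bars of Il6, Il11, Lif and Osm contrast with the narrow bars of the receptor chains.

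In all, 5 of 10 members (Il6, Il11, Clcf1, Osmr and Il6st) had every Z1C2Z sample below every control sample, against 8.82% of all genes tested, and 0 had every Z1C2Z sample above, against 8.45%. For each of these 5, an exact two-sided permutation test of the mean log2 CPM gave p = 0.0286, the smallest value that the 70 arrangements of 4 against 4 samples allow (0.0571 after Benjamini-Hochberg adjustment over the 10 members). The exact permutation p was 0.0857 for Lif, 0.143 for Osm, 0.343 for Il6ra, 0.371 for Lifr and 0.800 for Il11ra1.

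The controls differed most in the ligands. The SD of log2 CPM (with a prior count of 2) among the 4 controls was 2.88 for Lif, 2.71 for Il6, 2.02 for Il11 and 1.45 for Osm, against a median of 0.21 over all genes tested. Only 0.0462% of genes had a larger SD among the controls than Lif, 0.0594% a larger one than Il6, 0.370% than Il11 and 1.29% than Osm. The highest control exceeded the lowest 51.3-fold for Lif, 33.6-fold for Il6, 23.4-fold for Il11 and 7.02-fold for Osm. The SD was 0.60 for Clcf1, 0.37 for Il11ra1, 0.35 for Osmr, 0.26 for Lifr, 0.24 for Il6st and 0.19 for Il6ra, so the receptor chains lay near the typical gene.

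The Z1C2Z samples did not share this spread for all ligands. Lif was uniform among them, with an SD of 0.20 and a highest value 1.33 times the lowest, and the SD of Il11 was 0.56 and of Il6 0.92. Osm had an SD of 1.51 in Z1C2Z, against 1.45 in the controls, with values that ranged over 9.51-fold. Among the receptor chains, the SD was larger in Z1C2Z than in control for Osmr (0.57), Il6st (0.43), Il6ra (0.41) and Lifr (0.37), but not for Il11ra1 (0.17). Differences in spread between the groups were not tested.

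**Figure D3:**
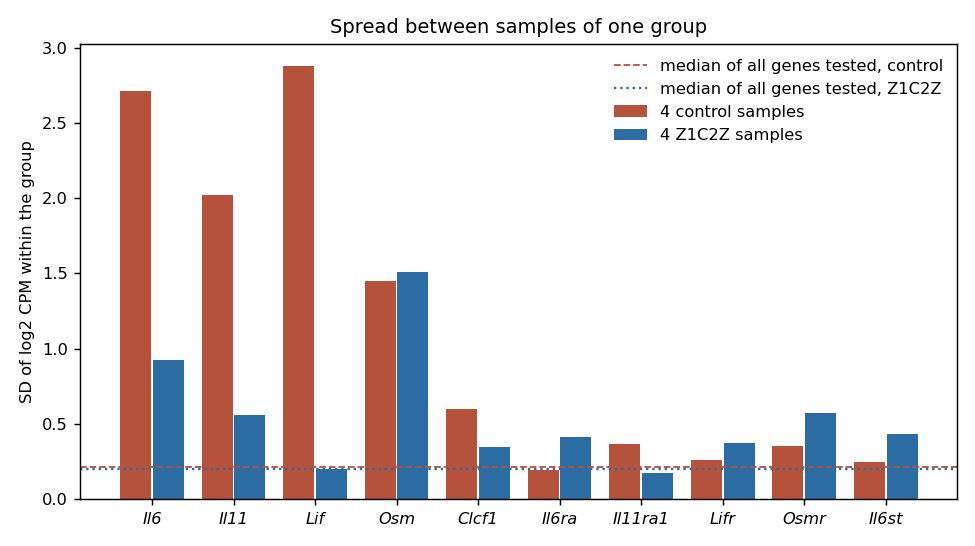
SD of log2 CPM over the 4 control (red) and 4 Z1C2Z (blue) samples for each member, with lines at the medians over all genes tested (0.21 and 0.20). The bars of Il6, Il11, Lif and Osm in the controls are far above the lines, and Lif is at the line in Z1C2Z.

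The high and low samples were largely the same ones across members. Control-1 and control-5 were the 2 highest controls for 4 of 5 ligands, and for Clcf1 these were control-5 and control-2. They were also the 2 highest controls for 3 of 5 receptor chains, Il11ra1, Lifr and Osmr. In the treated group, Z1C2Z-2 and Z1C2Z-4 were the 2 lowest samples for 8 of 10 members, all except Lif and Il11ra1.

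Marker genes of other cells moved with the samples as well. The summed level of 12 hair shaft and inner root sheath genes was 714 and 651 CPM in control-1 and control-5, 2466 and 3861 CPM in control-2 and control-3, 9687 and 4717 CPM in Z1C2Z-1 and Z1C2Z-5, and 16935 and 16226 CPM in Z1C2Z-2 and Z1C2Z-4. Within each group, the pair of samples with the higher Il6 level had the lower hair gene sums. Of these 12 genes, 11 were called higher in Z1C2Z, against 2.15% of all genes tested. The sum of 8 macrophage markers was 1324 to 1684 CPM in the controls and 739 to 1348 CPM in Z1C2Z, highest in control-5 and control-1 and lowest in Z1C2Z-4 and Z1C2Z-2. The sum of 8 neutrophil markers was 611 to 1558 CPM in the controls, lowest in control-1, and 176 to 721 CPM in Z1C2Z. All 8 macrophage and all 7 tested neutrophil genes had a log2 fold change below 0, against 48.9% of all genes. EdgeR called none of either list, although 4 genes of each had an unadjusted p under 0.05. Of all genes, 15.2% were lower at that unadjusted p. The fibroblast and endothelial markers, 6 of each, all had a log2 fold change below 0, and the fibroblast genes Dcn (-0.45, adjusted p = 0.0320) and Lum (-0.67, 0.0299) passed the adjusted p without overlap between the groups. Sums of fibroblast (54834 to 78015 against 43054 to 60493 CPM), endothelial (316 to 840 against 276 to 522 CPM) and wound-edge keratinocyte markers (2822 to 6388 against 2319 to 4209 CPM) overlapped between the groups. Sums of T cell, mast cell, adipocyte, erythroid and basal keratinocyte markers overlapped too, although the erythroid gene Alas2 was called lower (-1.17, adjusted p = 0.0487) and the other 2 erythroid genes also had log2 fold changes below 0. The sum of 8 skeletal muscle genes was 3444 to 6341 CPM in the controls and 2885 to 3296 CPM in Z1C2Z, without overlap. All 8 had a log2 fold change below 0, and none was called at the fold threshold. Acta1 (-0.86, adjusted p = 0.0303) and Myh1 (-0.61, 0.0341) passed the adjusted p alone. Apart from 1 neutrophil gene, which was at 0 in control-5, all marker genes in the table had reads in every sample. The part of these cell types in the levels of the IL6 family was not tested.

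On a scale per exon length (CPM per kilobase of exon, with the exons of all transcripts of a gene merged, GENCODE vM21), the levels of the members could be ordered. The merged length can exceed that of any 1 transcript, so this order is approximate. In the controls, Il11ra1 was at 46.8 ± 12.4, Il6st at 37.6 ± 6.41, Il6 at 34.7 ± 37.3 and Osmr at 30.6 ± 7.25 CPM per kilobase, and each overlapped with the next in this order. Il11 (10.1 ± 13.5), Lif (9.06 ± 10.5), Lifr (8.22 ± 1.39), Clcf1 (5.19 ± 2.504), Il6ra (3.40 ± 0.432) and Osm (3.36 ± 2.70) followed, and here too all neighbours in the order overlapped. In Z1C2Z the receptor chains came first. Il11ra1 was at 47.2 ± 5.49, Il6st at 24.5 ± 7.18, Osmr at 11.7 ± 4.50, Lifr at 7.27 ± 1.85 and Il6ra at 3.00 ± 0.852 CPM per kilobase. In this group Il11ra1 did not overlap with Il6st, nor Il6st with Osmr, nor Lifr with Il6ra, while Osmr and Lifr overlapped. The mean of every ligand was below that of every receptor chain, with Clcf1 at 2.41 ± 0.530, Osm at 0.830 ± 0.820, Il6 at 0.763 ± 0.490, Il11 at 0.699 ± 0.266 and Lif at 0.473 ± 0.0668 CPM per kilobase, each overlapping with the next and Clcf1 also with Il6ra.

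Whether members changed unequally was tested with 8 ratios of read counts within a sample, which do not depend on the scaling of libraries. Osmr relative to Il6st was 49.3% in control-1, 32.6% in control-2, 33.7% in control-3 and 48.8% in control-5. In the treated samples the ratio was 23.5% in Z1C2Z-1, 20.3% in Z1C2Z-2, 23.2% in Z1C2Z-4 and 26.9% in Z1C2Z-5. The groups did not overlap, and the mean log2 ratio was -1.31 ± 0.33 in control and -2.10 ± 0.16 in Z1C2Z, a difference of -0.79 (exact permutation p = 0.0286, 0.0762 adjusted over the 8 ratios).

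For Il6, Il11, Lif and Osm, the ratio of the ligand to its own receptor chain was lower in Z1C2Z on average. No such ratio was made for Clcf1. The difference in mean log2 ratio was -4.10 for Il6 to Il6ra and -2.92 for Il11 to Il11ra1, both without overlap between the groups (exact permutation p = 0.0286, adjusted 0.0762). It was -2.49 for Lif to Lifr (exact permutation p = 0.171, adjusted 0.196) and -0.69 for Osm to Osmr (exact permutation p = 0.400, adjusted 0.400), with overlap. Relative to Il6st, Lifr differed by 0.45 and Il6ra by 0.43 (exact permutation p = 0.0571 and adjusted p = 0.0914 for each), and Il11ra1 by 0.69 (exact permutation p = 0.171, adjusted 0.196), all higher on average in Z1C2Z with overlapping groups. None of the 8 ratios passed an adjusted p of 0.05, and the smallest adjusted value was 0.0762. The exact test cannot go below 0.0286, so after this adjustment a ratio could pass only if more of the 8 had reached that value. This outcome therefore does not show that members changed equally.

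**Figure D4:**
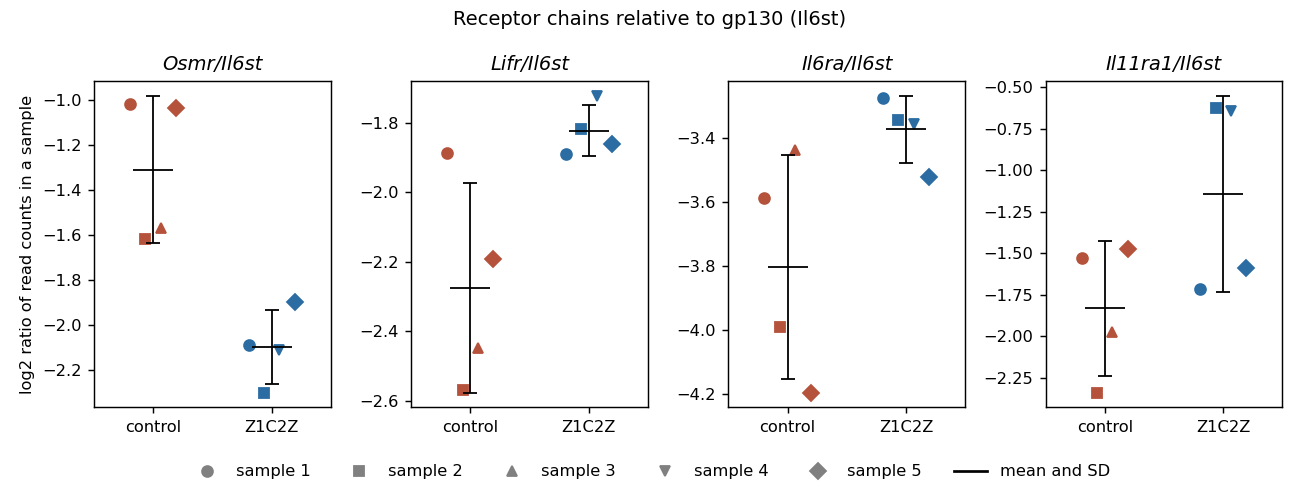
Log2 ratio of the read counts of Osmr, Lifr, Il6ra and Il11ra1 to those of Il6st within each control (red) and Z1C2Z (blue) sample, with the mean and SD of each group. The Osmr ratio is below the control range in all 4 Z1C2Z samples, whereas the other 3 ratios overlap.

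The signalling chain behind gp130 was described with 4 lists, chosen with earlier results of these data known. RNA levels do not measure the phosphorylation that activates JAK2 and STAT3. On Western blots, the study reports more phosphorylated JAK2 and STAT3 with ZCZ, although it also describes the pathway as inhibited. Over all genes tested, 1.25% were called lower, 2.15% were called higher and 48.9% had a log2 fold change below 0. At an unadjusted p under 0.05 with edgeR, 12.8% of all genes were higher. As for the members, the calls in these lists came from fits with all 8 samples, and none was made without control-5 or without any one of the Z1C2Z samples except Z1C2Z-5. In the list of 19 JAK-STAT transducers and brakes, all of which were tested, 1 gene was called lower, 0 were called higher (none with DESeq2 or at an unadjusted p under 0.05), and 15 had a log2 fold change below 0 (median -0.30, against 0.0086 over all genes). Socs3, a feedback inhibitor that STAT3 induces and that binds gp130, fell from 117 ± 56.5 to 27.2 ± 10.02 CPM (log2 fold change -2.11, SE 0.38, adjusted p = 0.0299). With the adjusted p alone, Jak2 (-0.93, adjusted p = 0.0303), Stat3 (-0.77, 0.0337) and Socs2 (-0.62, 0.0299) were also lower. Stat3 was at 277 ± 36.0 CPM in control and 162 ± 36.0 CPM in Z1C2Z. Jak1, the kinase most used by gp130, was at 389 ± 36.8 and 274 ± 67.6 CPM and did not pass (-0.50, adjusted p = 0.0946).

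In the list of 25 genes known to be raised by STAT3 or gp130 signalling, 6 were called lower and 0 higher (none with DESeq2, 1 at an unadjusted p under 0.05), 23 had a log2 fold change below 0, and the median was -1.27. S100a8 and S100a9 of this list are also in the neutrophil list. The list did not leave out genes that other signals also raise, so these counts do not measure gp130 signalling alone. The called genes were the acute phase gene Saa1 (-3.27, adjusted p = 0.0299), Lcn2, which encodes the iron-trapping protein lipocalin 2 (-2.18, 0.0303), the protease inhibitor gene Serpina3n (-1.79, 0.0394), Bcl3, a cofactor of NF-κB (-1.37, 0.0299), the IL-4 receptor gene Il4ra (-1.36, 0.0414) and the transcription factor gene Cebpd (-1.32, 0.0348). Serpina3n overlapped between the groups. Saa1 reads may be shared with its near-identical copy Saa2. Hif1a, the oxygen-sensing subunit of hypoxia-inducible factor 1, passed the adjusted p with a change under 2-fold (668 ± 40.1 to 380.1 ± 91.9 CPM, -0.81, adjusted p = 0.0303). Mcl1, a survival gene, did not pass (560.4 ± 119.8 to 398 ± 20.7 CPM, -0.49, adjusted p = 0.0696). Ccnd1, which encodes cyclin D1, was the 1 gene of the list that was higher by the adjusted p alone (122 ± 16.0 to 185 ± 14.1 CPM, 0.60, adjusted p = 0.0300).

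Of 18 genes for IL-1, TNF and IL-17 signals known to induce Il6, 17 were tested (Il17a had too few reads), 3 were called lower and 0 higher (none with DESeq2 or at an unadjusted p under 0.05), and all 17 had a log2 fold change below 0 (median -0.57). The list held ligands and receptors, and also Toll-like receptors, NF-κB and AP-1 genes and Ptgs2. Ptgs2, which encodes the enzyme cyclooxygenase 2 and not a signal, was at 348 ± 369 CPM in control and 18.7 ± 13.6 CPM in Z1C2Z (-4.22, SE 1.11, adjusted p = 0.0494). Il1r1, the signalling receptor of IL-1, was at 209 ± 43.9 and 86.5 ± 23.7 CPM (-1.28, adjusted p = 0.0299), and Nfkbiz, an inducible regulator of NF-κB target genes, was at 97.1 ± 33.2 and 46.9 ± 9.44 CPM (-1.05, adjusted p = 0.0348). Il1b had a log2 fold change of -1.81 with groups that did not overlap, and it did not pass (adjusted p = 0.119). Il1a did not pass either (-0.31, adjusted p = 0.154). Tnf was at 2.08 ± 0.658 CPM in control and 1.93 ± 0.824 CPM in Z1C2Z (adjusted p = 0.870), so no tested ligand of this list was called. Il1a, Il1b and Tnf were named after their values were seen, as were Jak2, Socs2 and Ccnd1 above and Il11ra2. The same holds for Dcn, Lum, Alas2, Acta1 and Myh1 among the markers.

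The other genes of the gp130 family had no call in either direction. Of 13 listed, 12 were in the table used here (all except Il31) and 10 were tested, with a median log2 fold change of -0.17, 6 of them below 0. No gene of this list had an adjusted p under 0.05 with edgeR or was called with DESeq2. Only 1 of the 10 tested, Cntfr, had an unadjusted p under 0.05, and it was higher, as were 12.8% of all genes at that p. Cntfr, the receptor chain for Clcf1 and ciliary neurotrophic factor, did not pass the test (14.95 ± 1.89 to 19.5 ± 2.26 CPM, 0.39, adjusted p = 0.0875). It was the 1 gene of these 10 with every Z1C2Z sample above every control, close to the 8.45% of all genes tested. Il12rb2, a related receptor chain of IL-12, was at 7.83 ± 3.03 and 8.55 ± 2.70 CPM (adjusted p = 0.819).

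**Figure D5:**
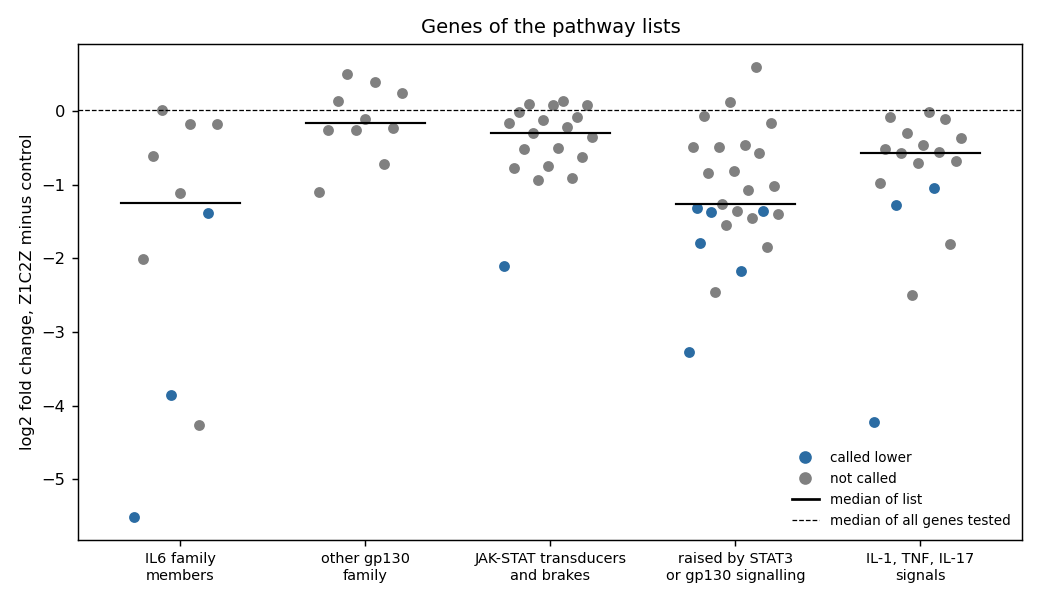
Log2 fold change (Z1C2Z minus control) of each tested gene of the IL6 family members and the 4 pathway lists, with called genes in blue, the list median as a line and the median of all genes tested as a dashed line. The called genes are all below 0, and the medians run from -0.17 for the other gp130 genes to -1.27 for genes raised by STAT3 or gp130 signalling.

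Across the 8 samples, the genes whose log2 CPM was most like that of each called member were taken as a description. The values include the difference between the groups and share the same libraries. For Il6, Pearson's r was highest with Uap1 (0.996), Pgm1 (0.994), Jph2 (0.989), Ccnl1 (0.988) and Tnip2 (0.985). For Il11, it was highest with Thbd (0.984), Rhoj (0.983), Map2k1 (0.982), Rgs16 (0.982) and Esd (0.981). For Osmr, the genes were Il4ra (0.993), Ddah1 (0.992), Slc39a14 (0.992), Atp10a (0.989) and Chst11 (0.988). Il4ra is thus in the list of genes raised by STAT3 and also the gene most like Osmr in its pattern among genes with a mean log2 CPM over 1.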

How the data were processed

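The authors deposited raw read counts per gene in 1 table of 18540 genes with KEGG annotation. Per the labels, RNA was extracted with Trizol (the methods name another kit), ribosomal RNA was depleted, and the second cDNA strand carried dUTP. Which aligner, counter, annotation, strand option and build were used is not given in the sources used here, so genes are named by symbol, and reads of near-identical or overlapping genes could have been divided in a way that cannot be undone. No column of per-sample values was left unused.

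The analysis used edgeR 4.0.16 and limma 3.58.1 under R 4.3.3, with filterByExpr (15147 genes kept), TMM scaling and the quasi-likelihood test on 4 against 4 samples without covariates, with Benjamini-Hochberg adjustment over all genes tested. Log2 CPM had a prior count of 2, and ratios of counts had 0.5 added to each count. Single members and ratios were tested with exact two-sided permutation tests over 70 arrangements. No pair of samples of 1 group agreed within sampling noise (smallest chi-square 21.0 per degree of freedom), so none was treated as 1 library deposited in duplicate. This does not show that samples came from separate mice, which remains an assumption. The edgeR fit was tested on simulated counts with the same dispersion for every gene, which does not cover the spread of the ligands among the controls. The permutation tests, the ratios and DESeq2 were not tested in this way. Totals of 28856790 to 38974888 counts per sample leave large counting error for genes with few reads.

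Alternatives to these choices were each sample left out in turn, a block for the sample number, a minimum of 10 counts in all samples, all genes kept, RLE size factors, DESeq2 1.42.0 and, for ratios, an offset of 2. The fold of mean CPM without each control was added after the data were seen. Named from the pathway lists were the called genes and the 2 of each list with the highest mean log2 CPM, and for each called member the 5 genes with the highest Pearson's r. Exceptions are marked in the text. The members, lists and tests were chosen with earlier results of these data known.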

Additional observations from a re-analysis of the deposited data

Results flagged for a closer look

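The level of Clcf1 in control-5 stood apart from the other controls, with a log2 CPM of 4.05 against 2.95 in the next highest control and a gap that was 0.832 of the range of the group. This exceeds Dixon's critical value for 4 samples. The same comparison was made for 36 groups of values, of which chance alone would single out about 1.8, and this was the 1 that was singled out.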

How the results depend on the processing

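The count of members called lower was 3, and it was also 3 with RLE size factors, without the low-count filter and with at least 10 counts in every sample. DESeq2 called 5 lower and placed 6 under an adjusted p of 0.05, adding Lif, Clcf1 and, by the adjusted p alone, Il6st. Both counts lay between 0 and 4 when 1 sample was left out, with 0 without control-5 or any of Z1C2Z-1, Z1C2Z-2 and Z1C2Z-4, and 1 without control-2. In the 4 fits with 0 members called, edgeR called no gene of the whole table, while 3100 to 4208 genes had an unadjusted p under 0.05. No member was called higher in any of these fits. The log2 fold change of Il11ra1 turned negative with the replicate block (-0.12) and without control-2 (-0.07), control-3 (-0.09), Z1C2Z-2 (-0.03) or Z1C2Z-4 (-0.04), with a range of -0.092 to 0.20 when 1 sample was left out; the cause was not tested. Of the genes raised by STAT3 or gp130 signalling, DESeq2 called 12 lower in place of 6. All 8 ratio differences kept their direction in the 10 alternatives run for each. Their adjusted p says nothing about stability, since with 1 sample left out the exact test cannot go below 0.0571, and no p was computed with the replicate block.

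The sample numbers 1, 2 and 5 occur in both groups, but same-numbered samples did not deviate together (correlations of -0.10, -0.06 and 0.32), so the numbers were not taken as pairs. With the replicate block, 4 members were called lower, adding Osm (-2.20, adjusted p = 0.0137), and 5 genes of the IL-1, TNF and IL-17 list in place of 3. In that fit control-3 and Z1C2Z-4 have no partner of the same number and do not inform the group difference. It therefore rests on the samples numbered 1, 2 and 5. Over all genes, the block gave 184 lower and 271 higher calls, against 189 and 326, and DESeq2 gave 333 and 433.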
